A study of Arabidopsis thaliana with 6 samples.

Results

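Replication licensing is the loading of the replicative helicase onto DNA before a cell copies its genome. The set held 10 genes chosen by locus (MCM2, MCM3, MCM4, MCM5, MCM6, PRL, CDT1A, CDT1B, CDC6 and CDC45). CDC45 acts after loading and is counted here with the licensing genes. Of the 10 genes, 8 had a probe set among the 22746 that were tested, and MCM6 (AT5G44635) and CDT1B (AT3G54710) were not analysed here. They were measured in both pieces of the root tip of wild-type (WT) Col-0 seedlings of Arabidopsis thaliana, with no transgene or treatment, which were kept in constant light on vertical plates until they were 8 days old. Zone I was the terminal 0.5 mm with the root cap and the dividing cells, and zone II was a 1.5 mm piece with the elongation and root hair zones. Each zone was measured on 3 arrays, and the number of roots behind an array is not given in the sources used here. Nothing in the labels says whether the arrays of a zone came from separate cultures, and a p-value here covers the spread between these arrays alone, technical or not.

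Licensing begins when the origin recognition complex marks an origin of replication. CDC6 and CDT1 then join it and load the MCM proteins, MCM2 to MCM7, which form the ring-shaped helicase core. The ring is inactive until CDC45 and the GINS complex bind it at the start of S phase. In plants the same machinery serves both dividing cells of the meristem and endoreduplicating cells, which copy their DNA without dividing as they leave the meristem. Several of these genes are known targets of E2F transcription factors, which the retinoblastoma-related protein holds in check.

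The arrays had been scaled to a common trimmed mean, and their median signal lay between 132.1 and 149.3. The markers followed the labels, but their lists were chosen with earlier results of these data known, so they are not an independent check. The 5 measured markers of the stem cell niche, root cap and young epidermis were all higher in zone I, with a summed signal of 5377 to 6213 on the zone I arrays and 145.6 to 443.1 on the zone II arrays. The 8 markers of the endodermal barrier and root hairs were all higher in zone II, with a summed signal of 196.9 to 558.3 on the zone I arrays and 45680 to 72132 on the zone II arrays. In whole pieces of root, fewer cells of a type and less RNA per cell cannot be told apart.

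Of the 8 licensing genes, 7 were higher in zone I at an adjusted p under 0.05 (limma, adjusted over all probe sets) and none was higher in zone II. Over all probe sets 19.8% were higher in zone I by the same rule, and 18.1% were higher in zone II. The exception was MCM5, whose arrays overlapped between the zones. For the other 7 genes every zone I array lay above every zone II array, a pattern found for 26.4% of all probe sets, with the reverse pattern in 23.5%. The median log2 difference of the 8 genes, zone I minus zone II, was 1.12, against 0.04 over all probe sets. The genes fell into ranges of unequal size: the MCM genes differed by 0.55 to 1.17, CDC6 by 1.61, CDT1A by 3.05 and CDC45 by 5.09.

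**Figure D1:**
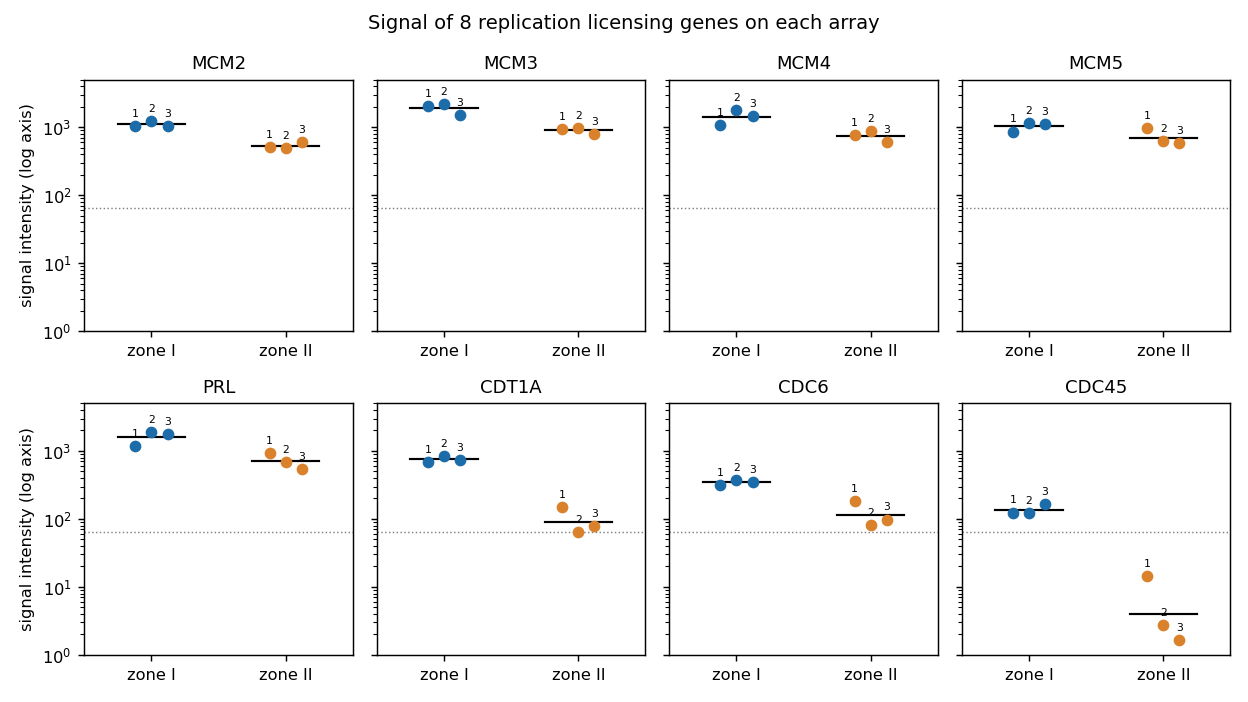
Signal intensity (log axis) of the 8 licensing genes on each of the 3 zone I arrays (left) and 3 zone II arrays (right). Points carry the array number, black bars are geometric means, and the dotted line marks a signal of 64. MCM genes stay above 490 on all arrays, whereas CDC45 lies between 1.65 and 14.4 in zone II.

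MCM2 (AT1G44900), a subunit of the helicase ring, had signals of 1049, 1247 and 1055 on the zone I arrays, against 506.9, 490.0 and 605.6 on the zone II arrays. The arrays of each zone lay close together and the zones were well apart. The log2 difference was 1.07 ± 0.20 (SE, n = 3 per zone, adjusted p = 0.00167), or 2.09-fold. MCM3 (AT5G46280), another subunit, had signals of 2043, 2214 and 1514 in zone I and 945.8, 986.1 and 802.3 in zone II. Array 3 was the lowest in both zones, and the zones did not overlap. Its difference of 1.06 ± 0.20 (adjusted p = 0.00165) was nearly that of MCM2.

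PRL (AT4G02060), named PROLIFERA for its expression in proliferating plant cells, encodes the MCM7 subunit. Its signals were 1178, 1915 and 1791 in zone I, against 931.9, 687.9 and 548.8 in zone II. The lowest zone I array and the highest zone II array were both the first ones and came near each other. Its log2 difference was 1.17 ± 0.26 (adjusted p = 0.00396), the highest estimate among the MCM genes in this fit.

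MCM4 (AT2G16440), a subunit of the ring, had signals of 1071, 1785 and 1456 in zone I, against 780.4, 890.8 and 612.0 in zone II. The first zone I array lay only a little above the second zone II array. The log2 difference was 0.90 ± 0.24 (adjusted p = 0.0114), or 1.87-fold. This call ended without the intensity trend in the variance model (adjusted p = 0.0756) and without zone I array 2 (0.73, adjusted p = 0.0607).

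MCM5 (AT2G07690), also a ring subunit, had signals of 866.0, 1142 and 1101 in zone I, against 973.9, 618.9 and 578.3 in zone II. Here the first zone II array was brighter than the first zone I array, so the zones overlapped. The log2 difference was 0.55 ± 0.25 with an adjusted p of 0.106, and its 95% interval, not adjusted for multiple tests, ran from 0.01 to 1.09. Without zone II array 1 the difference was 0.78 (adjusted p = 0.0169), and it was 0.91 with array 1 of each zone left out (adjusted p = 0.0143). These were the only 2 of 14 alternatives that called it. Both left out the array with its highest zone II signal, so they do not test the call. The difference was 0.46 without zone II array 2, 0.41 without zone II array 3 and 0.47 without zone I array 2 (adjusted p = 0.257, 0.261 and 0.261). The 5 MCM genes kept a geometric mean signal of 531.8 to 907.9 in zone II.

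CDT1A (AT2G31270), which loads the MCM ring together with CDC6, had signals of 683.7, 848.3 and 742.9 in zone I. In zone II they were 148.9, 64.8 and 78.0. All zone I arrays were several times brighter than any zone II array. CDT1A differed by 3.05 ± 0.36 on the log2 scale (adjusted p = 7.07e-05), an 8.30-fold difference with a 95% interval of 4.78-fold to 14.4-fold. Over 14 alternative settings it lay between 2.38 and 3.48, and the call held in each of them.

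CDC6 (AT2G29680), an ATPase that acts with the origin recognition complex in loading, had signals of 319.4, 370.3 and 349.2 in zone I. In zone II they were 181.4, 81.7 and 98.1. The zone I arrays were close to each other, and the first zone II array was again the brightest of its zone. CDC6 differed by 1.61 ± 0.39 on the log2 scale (adjusted p = 0.00674), a 3.05-fold difference with a 95% interval of 1.69-fold to 5.51-fold.

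CDC45 (AT3G25100), which joins the loaded ring to make the active helicase, had signals of 124.3, 122.3 and 165.5 in zone I. In zone II they were 14.4, 2.71 and 1.65. Signals under 64 make up 35.2% to 39.6% of the probe sets on an array, so all zone II values of this gene lay in the dim range. The log2 difference was 5.09 ± 1.00 (adjusted p = 0.00206), with a 95% interval of 2.88 to 7.29. With 64 added to every signal the difference was 1.52 (adjusted p = 0.00028), so its direction and call held while its size depended on the dim values. The other 7 genes had signals above 64 on all 6 arrays. For them the added 64 left MCM differences of 0.51 to 1.10, a CDC6 difference of 1.19 and a CDT1A difference of 2.38.

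**Figure D2:**
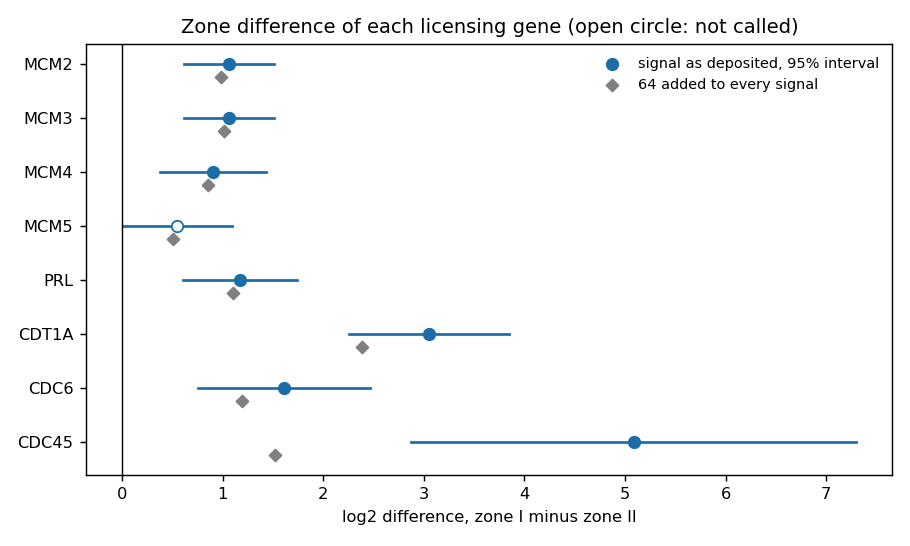
Log2 difference, zone I minus zone II, of the 8 licensing genes. Circles are the fitted values with 95% intervals (3 arrays per zone), diamonds are the values with 64 added to every signal. CDT1A keeps 2.38 of its 3.05, whereas CDC45 drops to 1.52, against 5.09 from the signals as deposited.

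The authors' deposited table of their own comparison gives log2 values that run the other way, zone II over zone I, as judged from their correlation of 0.87 across probe sets with the signal table. In the authors' deposited table, of the 8 genes, 7 had an adjusted p under 0.05 and were lower in zone II, where 25.6% of all probe sets were, and MCM5 again missed it (-0.61, adjusted p = 0.0515). The values for CDT1A (-3.34) and CDC6 (-1.63) in the authors' deposited table were close in size to those from the signals. That for CDC45 was -1.21, nearer to the difference with 64 added than to the plain one. The MCM genes lay between -0.61 and -1.13 in the authors' deposited table. Their order differed there: MCM4 had the largest value in size (-1.13), and PRL lay at -0.93.

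Whether the genes differed from each other in how far they were apart between the zones was examined by the log2 ratio of 2 probe sets within each array. With 3 arrays against 3, the smallest p of the exact two-sided permutation test is 0.1, so no ratio could pass 0.05 and the ratios are given as values. The lowest p after Benjamini-Hochberg adjustment over the 8 ratios was 0.2. The ratio of CDT1A to the mean of the 5 MCM genes was higher in zone I by 2.10 (log2), with no overlap between the zones (exact p = 0.1), and by 1.49 with 64 added. The ratio of CDC6 to the MCM mean was higher in zone I by 0.66 without overlap, by 0.30 with 64 added and by 0.42 without zone II array 2. That of CDC45 was higher by 4.13 without overlap, or 0.63 with 64 added. Of both loaders, CDT1A had the larger difference from the MCM mean, with and without the added 64.

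Within the MCM genes, the ratio of MCM5 to the mean of the other 4 was lower in zone I by 0.50 (log2, exact p = 0.1), with no overlap between the zones, and the ratio difference was -0.33 without zone II array 1. The corresponding ratios of MCM2, MCM3, MCM4 and PRL were 0.14, 0.14, -0.06 and 0.28, and each overlapped between the zones (exact p = 0.6, 0.7, 0.8 and 0.2). The first 3 of these changed sign when single arrays were left out. Among the 5 measured ring subunits, MCM5 alone had a ratio that did not overlap between the zones, a separation that this test cannot call.

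The arrays within a zone were not equal for these genes. In zone I, array 1 exceeded the mean of arrays 2 and 3 in 1 of the 8, with a median of -0.21 (log2). It did so in 2 of 15 mitosis genes (median -0.57), against 10427 of all 22746 probe sets (median -0.06). The summed signal of the mitosis genes was 7203, 13478 and 9509 on the zone I arrays. MCM5, PRL, CDT1A, CDC6 and CDC45 had their highest zone II signal on zone II array 1, where they exceeded the mean of arrays 2 and 3 by 0.70, 0.60, 1.07, 1.02 and 2.77 on the log2 scale. MCM2, MCM3 and MCM4 did not follow, at -0.10, 0.09 and 0.08. All 15 measured mitosis genes were higher on that array than on the mean of the other zone II arrays, by a median of 2.78. Over all probe sets 11912 of 22746 were higher there, with a median of 0.04. In 10 of the 15 the zone II mean was under 64, as for CDC45, so these sizes depend on dim signals. The summed signal of the mitosis genes was 3314 on zone II array 1, against 946.5 and 990.9 on arrays 2 and 3. The zone I markers did not move as one: the root cap factor SMB had 109.8 on zone II array 1 and 3.15 and 3.07 on arrays 2 and 3, while PLT1, PLT2, FEZ and WER were lower there than on the mean of the others. Without zone II array 1 the log2 differences were 3.41 for CDT1A, 1.95 for CDC6, 6.01 for CDC45 and 1.37 for PRL. Such a rise follows from leaving out the array with their highest zone II signal, so these values do not test the calls. The CDC45 value rests on zone II signals of 2.71 and 1.65. The count higher in zone I was then 8 of 8, against 7 without zone II array 2 or array 3 and 6 without zone I array 2. The gene gained was MCM5, whose highest zone II signal was also on the array left out, so the count does not test its call. Over all 22746 probe sets, the calls in either direction were 8118 without zone II array 1. They were 7596 without zone II array 2, 8293 without zone II array 3 and 7124 without zone I array 2.

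**Figure D3:**
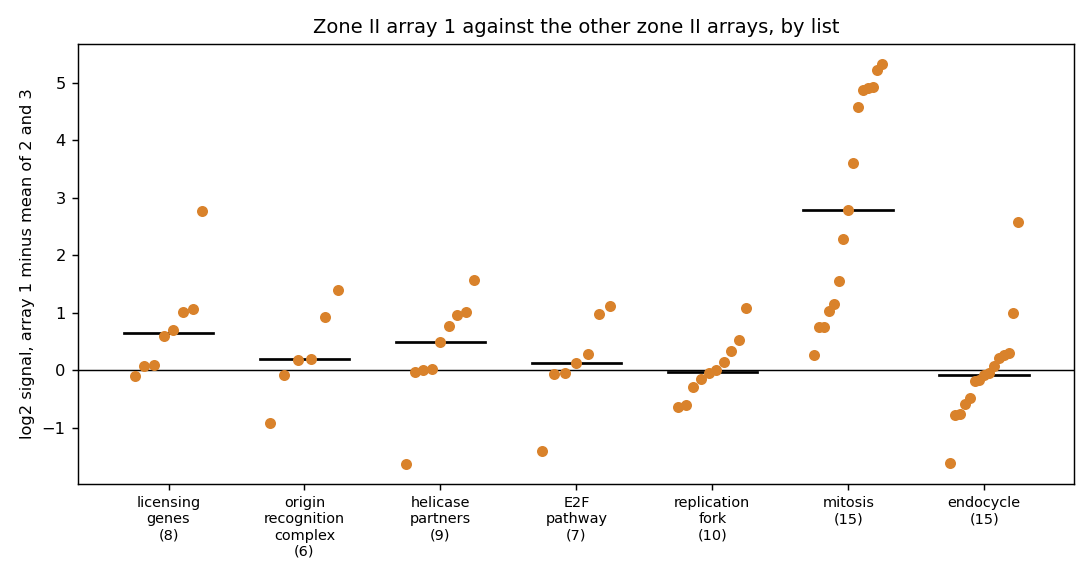
Log2 signal on zone II array 1 minus the mean of zone II arrays 2 and 3 for each gene of 7 lists, with bars at the list medians and the number of genes measured in brackets. The mitosis genes lie at a median of 2.78, the licensing genes at 0.65 and the replication fork genes at -0.03. Over all probe sets the median is 0.04. Signals are as deposited, and 10 of the 15 mitosis genes have a zone II mean under 64.

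The origin recognition complex, the platform on which CDC6 and CDT1 assemble, was measured through 6 of its 7 listed genes. Of these 3 were higher in zone I, none was higher in zone II, and the median log2 difference was 1.52 (1.00 with 64 added). Over all probe sets 19.8% were higher in zone I and 18.1% in zone II. ORC6 (AT1G26840) had signals of 649.1, 1232 and 725.3 in zone I, against 127.5, 84.6 and 27.8 in zone II. Its difference of 3.64 ± 0.53 (adjusted p = 0.000267) exceeded the estimate for CDT1A, but the 95% intervals overlapped (2.48 to 4.80 for ORC6 and 2.26 to 3.85 for CDT1A), and it was 2.71 with 64 added. ORC4 (AT2G01120) lay at 1.97 ± 0.33 and ORC1B (AT4G12620) at 1.30 ± 0.25. The ORC1B probe set carries the s_at suffix, so ORC1A, a near-identical copy that was not analysed here, may contribute to its signal. ORC2, ORC3 and ORC5 did not pass (0.90, 1.74 and 0.99, adjusted p = 0.214, 0.0961 and 0.268), and each overlapped between the zones. ORC3 passed without zone II array 3 (2.51, adjusted p = 0.0176) and lay at 1.00 without zone II array 2 (adjusted p = 0.276). With 64 added ORC3 lay at 0.90. In the authors' deposited table all 6 measured genes of the complex were lower in zone II at an adjusted p under 0.05, as were 25.6% of all probe sets. Among the 6 were ORC2, ORC3 and ORC5 (-1.12, -0.63 and -0.89, adjusted p = 0.0017, 0.0413 and 0.0143).

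Of 9 measured partners of the helicase, 7 were higher in zone I and none was higher in zone II, against 19.8% and 18.1% of all probe sets. Their median was 1.70 (0.90 with 64 added). The GINS complex, which with CDC45 turns the loaded ring into a moving helicase, was higher in zone I in all 4 measured subunits. PSF1 (AT1G80190) had signals of 528.8, 537.2 and 511.2 in zone I and 33.5, 94.5 and 112.4 in zone II. The zone I arrays were almost equal, and the lowest zone II value was on array 1. Its difference was 2.89 ± 0.47 (adjusted p = 0.00055). PSF3 (AT1G19080) lay at 1.83 ± 0.28, on a probe set whose deposited annotation also names its copy AT3G55490, so the gene is uncertain. PSF2 (AT3G12530) and SLD5 (AT5G49010) lay at 1.75 and 1.15 (adjusted p = 0.0130 and 0.0247).

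MCM10 (AT2G20980), which acts in helicase activation, and ETG1 (AT2G40550), an MCM-binding protein first named as an E2F target, were about as far apart between the zones as the MCM genes, at 0.99 ± 0.32 and 1.09 ± 0.37 (adjusted p = 0.0329 and 0.0368). AT1G07270, annotated as a second CDC6 gene (CDC6b), lay at 2.03 ± 0.66 (adjusted p = 0.0320). Its signals were 72.3, 196.9 and 119.0 in zone I, against 29.4, 21.2 and 40.2 in zone II. The zone II signals were all under 64, and with 64 added the difference was 0.99. MCM8 and MCM9, relatives of the ring subunits that are known from DNA repair and lie outside the ring, did not pass (0.64 and 1.70, adjusted p = 0.358 and 0.0795), although MCM9 passed with 64 added (0.74, adjusted p = 0.0337) and without zone II array 1 (2.22, adjusted p = 0.0331). Only PSF1 and PSF3 of the 7 called partners kept their calls in every alternative in which they were tested. Without zone I array 2 the count was 2 of 9, and without zone I array 3, zone II array 2 or zone II array 3 it was 4. MCM10 and ETG1 also lost their calls without the intensity trend (adjusted p = 0.0814 and 0.113), and without zone II array 3 ETG1 lay at 0.66 (adjusted p = 0.0842). In the authors' deposited table all 9 partners were lower in zone II at an adjusted p under 0.05, as were 25.6% of all probe sets. MCM8 and MCM9 were included (adjusted p = 0.0319 and 0.0140).

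Among the E2F pathway genes, 4 of 7 measured were higher in zone I and none in zone II, against 19.8% and 18.1% of all probe sets. Their median was 0.76 (0.61 with 64 added). E2FA (AT2G36010), an activator of S phase genes, had signals of 296.5, 817.4 and 508.3 in zone I, against 184.0, 77.1 and 94.1 in zone II. The zone I arrays were widely spread but stayed above zone II. Its difference was 2.18 ± 0.46 (adjusted p = 0.00298). E2FB (AT5G22220), the other activating E2F, had overlapping arrays and a difference of 0.05 ± 0.47, with a 95% interval of -0.99 to 1.10. DEL3 (AT3G01330), an atypical E2F, lay at 1.84 ± 0.42 (adjusted p = 0.00528).

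RBR1 (AT3G12280), the retinoblastoma-related protein, and E2FC (AT1G47870), known as a repressing E2F, had small differences of 0.55 ± 0.19 and 0.70 ± 0.25 (adjusted p = 0.0377 and 0.0471). Both calls ended without the intensity trend (adjusted p = 0.119 and 0.0945) and when any array other than zone II array 1 was left out, which put the count at 2 of 7, or at 3 of 7 without zone II array 2. DPA (AT5G02470), a dimerisation partner of E2F proteins, lay at 0.76 ± 0.30 (adjusted p = 0.0686, or 0.0454 with equal medians and 0.0287 without zone II array 2), and DEL2 (AT5G14960) at 1.30 ± 0.69 (adjusted p = 0.175). Of the 7 genes, 5 were lower in zone II at an adjusted p under 0.05 in the authors' deposited table, against 25.6% of all probe sets. DPA was among the 5 (adjusted p = 0.0103). DPB and DEL1 were not analysed here.

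Set beside other phases of the cell cycle, the licensing genes lay near the replication fork genes and below the mitosis genes in the size of the zone difference. Of 10 measured fork genes, 7 were higher in zone I, against 19.8% of all probe sets, with a median of 1.21 (0.91 with 64 added). The largest differences there were those of the ribonucleotide reductase subunit TSO2 (2.88) and the sliding clamps PCNA2 (2.37) and PCNA1 (1.62). The polymerase genes ICU2 and POL2A and the chromatin assembly gene FAS2, named after their values were seen, did not pass (0.44, 0.44 and -0.11). In the authors' deposited table POL2A was lower in zone II (-0.64, adjusted p = 0.00466). ICU2 and FAS2 missed 0.05 there too (adjusted p = 0.183 and 0.181). Of 15 mitosis genes, 13 were higher in zone I, against the same 19.8%, with a median of 3.66 (2.14 with 64 added). They were led by the cell plate syntaxin KN (6.21), the B-type cyclin CYCB2;4 (5.29) and the spindle checkpoint protein MAD2 (5.09). This order rests on dim zone II signals, which were 4.07 and 0.99 for CYCB2;4 and 5.78 and 4.21 for MAD2 on arrays 2 and 3. With 64 added KN, CYCB2;4 and MAD2 lay at 4.05, 1.96 and 2.55, and PLE (2.97) and CYCA1;1 (2.70), named after their values were seen, exceeded the last pair. CYCB2;4 lost its call without the intensity trend (adjusted p = 0.0541), as did CYCA1;1 (adjusted p = 0.0694). The members that did not pass, CYCB2;2 and the Aurora kinase AUR2, also named after their values were seen, lay at 3.58 and 0.44. CYCB2;2 passed with 64 added (1.08, adjusted p = 0.0264) and in the authors' deposited table (-1.26, adjusted p = 0.00401). AUR2 passed in neither (adjusted p = 0.476 and 0.349). A zone mean under 64 occurred in 10 of the 15 mitosis genes, against 1 of the 8 licensing genes and none of the fork genes. The difference between the lists was not tested.

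**Figure D4:**
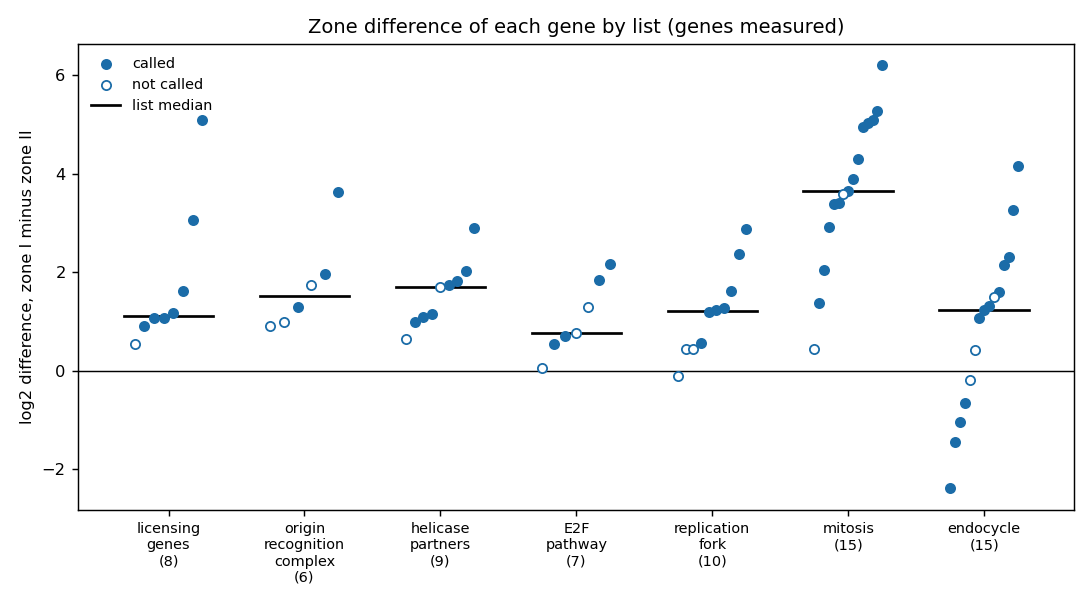
Log2 difference, zone I minus zone II, of each measured gene of the licensing set and 6 other lists. Filled points passed an adjusted p of 0.05 (limma), open points did not, and bars mark list medians, which are 1.12 for the licensing genes, 1.21 for the fork genes and 3.66 for the mitosis genes.

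The genes outside these lists whose log2 signal over the 6 arrays followed the mean of the 5 MCM genes most closely were AT4G31790, annotated as a putative diphthine synthase, DHDPS1 (AT3G60880), an enzyme of lysine synthesis, AKR4C11 (AT3G53880), an aldo-keto reductase, AT5G03870, of the glutaredoxin family, and CP29 (AT3G53460), an RNA-binding protein. Their Pearson r was between 0.995 and 0.997 over 6 arrays that share the zone split. Of the 11168 probe sets compared, 720 had an r above 0.95. The licensing genes themselves had an r of 0.82 (MCM5) to 0.97 (CDT1A) with the mean of the MCM genes, leaving out the gene itself, and among the ring subunits the highest was 0.96 for PRL.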

How the data were processed

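Per the labels' protocols, cDNA was amplified from total RNA before biotin labelling. The authors deposited linear signal intensity values, credited to MAS5 and Affymetrix Expression Console in the submitters' processing notes, with versions, settings and array design not given in the sources used here. Trimmed by 2% at each end, the mean was 500.0 to 500.1 on every array. The authors also deposited log2 fold changes and p-values (plain and adjusted) of their own zone comparison, whose test is not given there.

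The 64 control probe sets were left out, and log2 of the other 22746 was fitted in limma 3.58.1 (R 4.3.3; lmFit, eBayes with an intensity trend, two-sided, no block, Benjamini-Hochberg over all probe sets). Differences are zone I minus zone II. The fit was also run on simulated data, whose settings and outcome are not reported here. Loci came from the deposited table, each with 1 probe set, and symbols from the TAIR10.1 annotation. The number of arrays limits the precision. The members and lists were chosen with earlier results of these data known. Named were all members, all genes of the origin, helicase partner and E2F lists, and the 3 largest called differences of each other cell cycle list. Also named were the 5 genes most like the MCM mean among those with a mean signal above the median. Ratios of CDT1A to CDT1B and of ORC1A to ORC1B could not be made. Alternatives were a replicate block, 16 or 64 added, equal medians, quantile normalization, removal of the dimmest 40% of probe sets, a variance model with no intensity trend, and arrays left out. Figures were drawn with matplotlib 3.10.9 in Python 3.11.15.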

Additional observations from a re-analysis of the deposited data

How the results depend on the processing

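Over 14 alternatives the count of licensing genes higher in zone I stayed between 6 and 8 of 8 (6 of the 7 left by the filter on dim probe sets, which removed CDC45), and none was higher in zone II in any of them. Leaving out 1 array in turn gave 6 to 8, with a median difference of 1.01 to 1.25, and with array 1 of each zone left out the median was 1.36, against 1.12. In the same runs the origin recognition complex had 3 to 4 genes higher in zone I, the helicase partners 2 to 8, the E2F pathway 2 to 4, and all probe sets together 7095 to 8293 calls, against 8623. The E2F count was 2 without the intensity trend and 2 with array 1 of each zone left out. Of genes that were not called, E2FB (0.05) lay between -0.23 and 0.38 as single arrays were left out, with negative values of -0.23, -0.17 and -0.05, and at 0.64 with array 1 of each zone left out, and KRP4 (-0.20) lay between -0.32 and 0.0062 as single arrays were left out, and at 0.10 with array 1 of each zone left out. For same-numbered arrays of the zones, the deviations from the zone means correlated at 0.04, 0.05 and 0.08, in each case the highest for that array. Arrays of unlike number correlated at -0.048 to 0.0056. Whether same-numbered arrays share a batch or a pairing was not tested. With the replicate number as a block, 7 licensing genes were called, as without it, the E2F count was 2, against 4, and 8445 probe sets were called in all. The cause of these changes was not tested. Signals under 64 limit the sizes given for CDC45 in zone II and for other genes with such signals, among them CDC6b and KRP1. The 3 arrays per zone limit all calls.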

Other observations

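Genes that slow the cell cycle or act in the switch to endoreduplication included calls in both directions. Of 15 measured, 8 passed with the higher signal in zone I, where 19.8% of all probe sets did, and 4 with the higher signal in zone II, against 18.1% of all probe sets (limma). The share higher in zone II is near that of all probe sets. The inhibitors among these genes were named after their values were seen.

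The KRP inhibitors of cyclin-dependent kinases did not move as one. Of 6 measured, 3 were higher in zone II and 2 in zone I, against 18.1% and 19.8% of all probe sets, and 1 did not pass. Among the called KRP genes, only KRP1 and KRP5 kept their calls in all 14 alternatives. KRP1 (AT2G23430) had signals of 41.6, 56.0 and 36.7 in zone I and 176.7, 323.3 and 216.8 in zone II. Its log2 difference, zone I minus zone II, was -2.39 ± 0.49 (SE, n = 3 per zone, adjusted p = 0.00269). The zone I signals were all under 64, and with 64 added the difference was -1.45. KRP5 and KRP2 lay at -1.46 and -1.03 (adjusted p = 0.00134 and 0.0472). KRP3 and KRP7 lay on the other side, at 1.22 and 1.31 (adjusted p = 0.0377 and 0.0336), and KRP4 at -0.20 (adjusted p = 0.669). SIM, an inhibitor known to promote endoreduplication, lay at -0.65 (adjusted p = 0.0186), whereas its relative SMR1 lay at 1.60 (adjusted p = 0.000282). Other genes of this list, also named after their values were seen, did not share the direction of SIM. CCS52B, BIN4 and RHL1 were called higher in zone I, by 2.31, 2.14 and 1.06. CCS52A1 and CCS52A2 did not pass (0.42 and 1.49). In the authors' deposited table CCS52A1 was lower in zone II (-0.83, adjusted p = 0.0137), and CCS52A2 missed 0.05 there too (adjusted p = 0.621).

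CYCA2;3, an A-type cyclin known to hold back endoreduplication, was higher in zone I by 4.15 ± 0.48, or by 3.04 with 64 added. The checkpoint kinase WEE1 was higher in zone I by 3.26, by 1.49 with 64 added and by 1.85 without zone II array 3 (adjusted p = 0.0119). The calls of KRP1, KRP5, SMR1 and CYCA2;3 held in all 14 alternatives run. The call of KRP2 was lost in 9 of the 14 (adjusted p up to 0.172), that of KRP3 in 6 (up to 0.163), that of KRP7 in 5 (up to 0.228) and that of SIM in 4 (up to 0.125). With array 1 of each zone left out KRP7 lay at 0.83. The call of WEE1 was lost in 4 of 13 (up to 0.096).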
